A study of Mus musculus with 12 samples.

Results

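The genes that carry a cell from G2 through mitosis were followed in AML12 cells exposed to copper, to a bile acid, or to both. A set of 50 G2/M and mitotic spindle genes was chosen by symbol from the 24824 genes of the expression table, and all 50 were found and had a mean level high enough to be tested. AML12 is an immortalized line of mouse hepatocytes, here of wild-type genotype. Group A was left untreated, group B received 300 μM CuCl2 with 40 nM elesclomol (Cu/ES), a copper ionophore, group C received the same Cu/ES with 1000 μM taurocholic acid (TCA), a conjugated bile acid, and group D was given TCA alone, also at 1000 μM. Every group was sampled at 24 h and had 3 libraries of polyadenylated RNA, named A1 to D3. The labels do not say whether the 3 libraries of a group were separate cultures, so p-values measure the spread between these libraries, which may be technical.

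Entry into mitosis is driven by cyclin-dependent kinase 1 (CDK1) bound to cyclin A or B, which CDC25 phosphatases switch on. Polo-like and Aurora kinases, kinesin motors, kinetochores and condensins then build the spindle and compact the chromosomes, and the spindle checkpoint holds back the anaphase-promoting complex (APC/C) until every kinetochore is attached. Most of these genes are transcribed in late S phase and G2 under FOXM1, MYBL2 and the DREAM complex, so in a dividing culture their RNA follows the share of cells in that window. In bulk RNA, fewer cells in G2 or M and less of these RNAs per cell cannot be told apart.

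Levels are given as FPKM, the reads of a gene scaled by its length and by the total of its library. Differences were tested on log2(FPKM + 1) with limma over the 10615 genes with a mean of at least 1 FPKM, and p-values were adjusted by the Benjamini-Hochberg method over all of them. "Rose" and "fell" are used for an adjusted p under 0.05, and "both thresholds" means that an absolute log2 difference above 1 was also passed. Library totals were 38298857 to 39108519 reads in group A, 30773752 to 32002324 in group B, 29115011 to 34912748 in group C and 39444420 to 39782142 in group D. The 10 most abundant genes took 4.99% to 5.16% of the reads in group A and 12.1% to 12.9% in group B. Mitochondrial genes took 2.0% to 2.23% of the reads in group A, 4.08% to 4.49% in group B, 4.88% to 5.0% in group C and 1.93% to 2.13% in group D. The number of genes at 1 FPKM or more was 10805 to 10893 in group A, 8458 to 8576 in group B, 8490 to 8711 in group C and 10570 to 10664 in group D. The part of these in the results was not tested. The keratins *Krt8* and *Krt18* were abundant, with group means of 62.4 to 399.8 FPKM. The hepatocyte genes *Alb*, *Apob* and *Hnf4a* were at or near 0 in all 12 libraries, with a highest value of 0.0758. The 7 genes of the hepatocyte list, keratins included, had a sum of 236 to 287 FPKM under Cu/ES against 596 to 649 untreated. *Krt8* had a group B mean of 183 FPKM against 344 untreated, and *Krt18* 81.9 against 285. *Apoa1* and *Trf* of that list were higher under Cu/ES. *Apoa1* had a group B mean of 1.86 FPKM against 0.00863 untreated, and *Trf* 0.718 against 0.00741. The 3 leukocyte markers had a highest value of 0.166 FPKM. Marker sums of other cell types moved with Cu/ES and with TCA. The 6 stellate cell and fibroblast genes summed to 140.1 to 206 FPKM in group A and 3.44 to 5.76 in group B, led by *Col3a1*, and the 4 endothelial genes to 0.922 to 1.16 FPKM in group A and 6.79 to 10.5 in group B, led by *Pecam1*. The 4 cholangiocyte genes summed to 230.5 to 326 FPKM in group A and 111 to 139.9 in group B, led by *Krt19*. *Sox9* of that list went the other way, with means of 10.6 FPKM in group A and 50.9 in group B. For 4 macrophage genes the sum was 72.5 to 102 FPKM in group A and 24.6 to 29.1 in group B. *Cd68* made up nearly all of it, and *Adgre1* was at 0 in both groups. With TCA the macrophage sum was 25.5 to 37.0 FPKM in group D, the endothelial sum 16.5 to 19.7 and the stellate cell and fibroblast sum 1.27 to 2.45 in group C. The part of these changes in the results was not tested.

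In untreated cells all 50 genes were above 1 FPKM in every library, and their summed level was 1878 to 1941 FPKM. The highest means were those of *Ube2c* (176 ± 11.7 FPKM, SD, n = 3), the APC/C ubiquitin-conjugating enzyme, *Top2a* (168 ± 7.27), the topoisomerase that disentangles sister chromatids, and *Cdc20* (76.0 ± 4.77), the APC/C activator of anaphase. The lowest were *Pttg1* (7.58 ± 0.571), which encodes securin, *Mybl2* (8.09 ± 0.500) and *Ttk* (8.38 ± 0.760), the checkpoint kinase MPS1. The summed level was 515 to 574 FPKM with Cu/ES, 355 to 366 with Cu/ES and TCA, and 1682 to 1725 with TCA alone. No library of one group lay within the range of another, and the order from high to low was A, D, B, C.

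**Figure D1:**
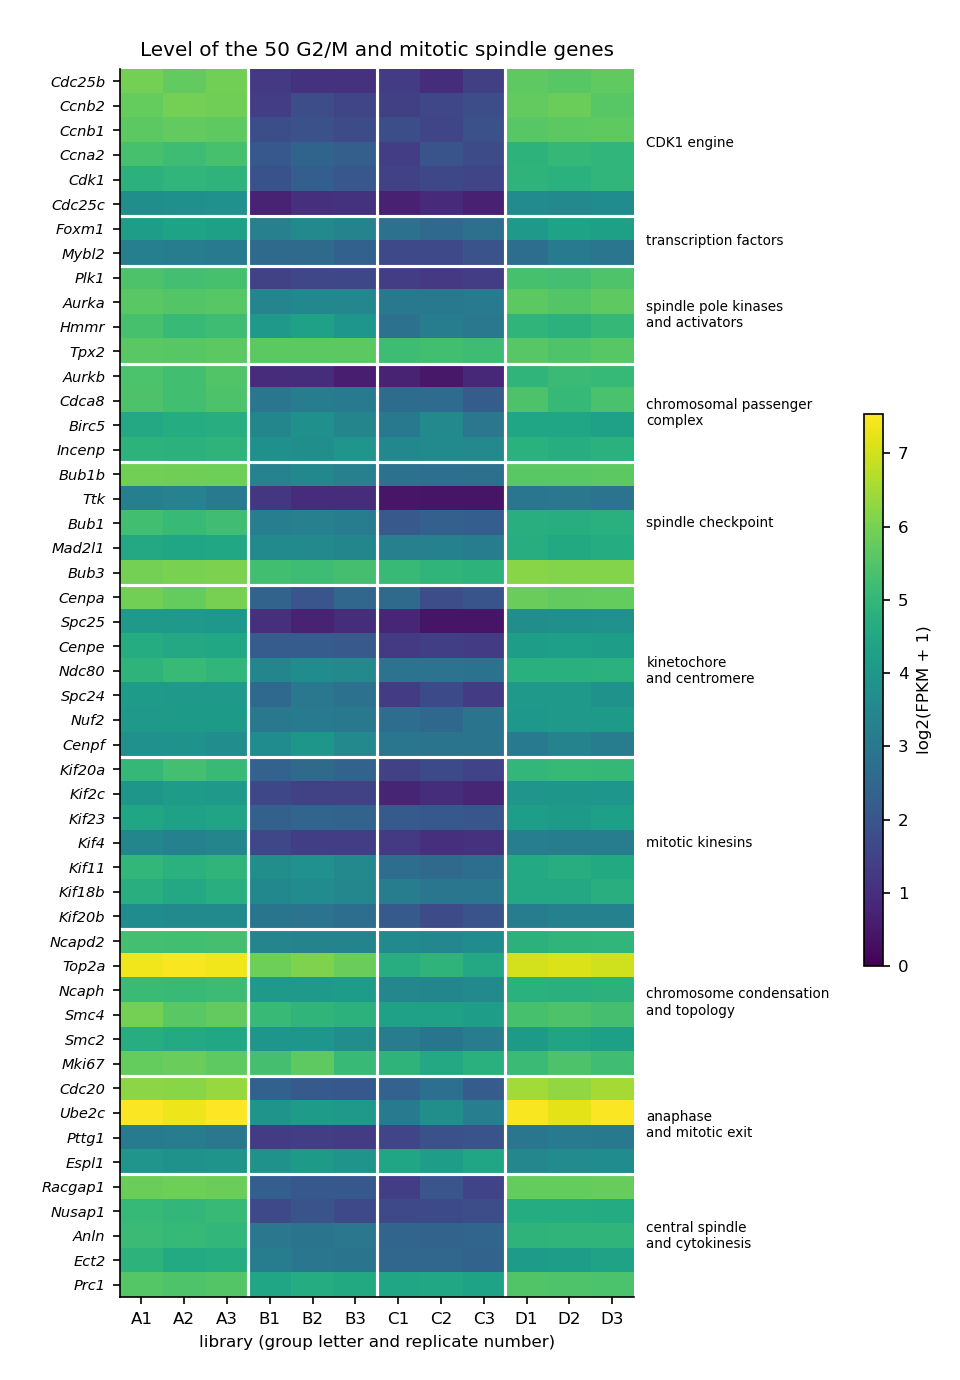
Heatmap of log2(FPKM + 1) for the 50 genes (rows, grouped by role and ordered within a role by the difference between groups B and A) in the 12 libraries (columns). Groups A and D are bright in most rows and groups B and C dark, with summed levels of 1878 to 1941 and 1682 to 1725 FPKM against 515 to 574 and 355 to 366, while *Tpx2*, *Cenpf* and *Espl1* stay at a like shade in groups A and B.

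The first comparison asked what Cu/ES did to these genes without TCA. Between groups B and A, 38 of the 50 genes fell past both thresholds, or 76.0%, where 53.0% of all genes tested did, and none rose, where 10.1% of all genes did. At the adjusted p alone 47 fell (all genes 72.0%) and none rose (all genes 20.1%), nor did any at an unadjusted p under 0.05 (all genes 20.2%), either by limma or by limma-voom on recovered reads. In 46 genes every group B library was below every group A library, which held for 72.4% of all genes tested. The median log2 difference of the 50 genes was -1.91, against -1.10 over all genes tested, so the median gene was lower too. When libraries were scaled by the median ratio, which moved the median of all genes to -0.03, the median of the 50 genes was -0.76 and 20 fell past both thresholds (all genes 25.5%). On that scale 3 rose past both (all genes 25.9%) and 13 rose at the adjusted p (all genes 42.8%). On the FPKM scale group B kept a median of 22.7% of the group A level for the 50 genes and 39.5% for all genes tested. The 50 genes spread widely around that median: 13 kept under 10% (26.0%, against 16.7% of all genes), 26 kept 10% to 50%, and 11 kept at least 50% (22.0%, against 42.4%).

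The CDK1 engine had the lowest median of the 10 roles. All 6 of its genes fell past both thresholds, also under median-ratio scaling, with a median log2 difference of -3.46. *Ccnb2*, encoding cyclin B2, was at 53.6, 61.4 and 58.7 FPKM in group A, 1.60, 2.47 and 1.96 in group B, 1.67, 2.06 and 2.47 in group C and 52.4, 56.2 and 46.6 in group D. The Cu/ES libraries lay far below the others, and those with and without TCA overlapped. The log2 difference between groups B and A was -4.30 (SE 0.12, limma with Benjamini-Hochberg, adjusted p = 3.50e-13), and only 78 to 122 reads were left in a group B library. *Cdc25b*, the phosphatase that first activates CDK1 at the G2/M boundary, had the largest difference of the 50 genes on this scale, where limma-voom on recovered reads put *Aurkb* first. Its values were 61.1, 52.3 and 59.6 FPKM in group A against 1.44, 1.16 and 1.12 in group B, or 2.15% of the untreated level, a log2 difference of -4.71 (SE 0.11, adjusted p = 8.39e-14 by limma). *Ccnb1* kept 4.87%, *Cdc25c* 7.49%, *Ccna2*, encoding the S and G2 phase cyclin A2, 9.99%, and *Cdk1* itself 11.1%.

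The 2 transcription factors fell less than most of the set on this scale. *Foxm1*, the forkhead factor of G2/M genes, was at 17.3, 19.8 and 18.6 FPKM in group A against 8.67, 10.8 and 9.42 in group B. The groups did not overlap, and the log2 difference was -0.88 (SE 0.10, adjusted p = 1.30e-06 by limma), smaller than that of the median gene. *Mybl2*, which encodes B-MYB, differed by -0.67. Neither passed both thresholds, and under median-ratio scaling both were higher in group B, by 0.31 and 0.44 on the log2 scale (limma with Benjamini-Hochberg, adjusted p = 0.00800 and 0.00177).

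Of the 4 spindle pole kinases and activators 3 fell past both thresholds. *Plk1*, encoding Polo-like kinase 1, kept 4.90% of its level (log2 difference -3.79) and *Aurka*, encoding Aurora A, 21.9% (-2.09). *Hmmr*, a spindle microtubule protein, kept 45.5% (-1.09, and 0.14 under median-ratio scaling). *Tpx2*, whose product activates Aurora A on the spindle, was at 48.3, 47.1 and 49.0 FPKM in group A against 48.8, 49.0 and 48.7 in group B, so the groups overlapped. The log2 difference was 0.02 (95% interval -0.10 to 0.14, limma, adjusted p = 0.724), with 6573 to 6879 reads in a group B library. The direction of *Tpx2* depended on the scaling, being 1.28 under median-ratio scaling and -0.35 in TPM.

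The 4 genes of the chromosomal passenger complex, which corrects faulty attachments and later guides cleavage, all fell past both thresholds, with a median log2 difference of -1.68. Its kinase gene *Aurkb*, encoding Aurora B, was at 41.5, 37.6 and 44.4 FPKM in group A, 0.957, 0.962 and 0.552 in group B, 0.678, 0.408 and 0.796 in group C and 29.4, 33.9 and 32.2 in group D. At 2.0% of the untreated level in group B it kept the least of the 50 genes (log2 difference -4.54, SE 0.12, limma adjusted p = 1.95e-13), and 37 to 67 reads were left. The partners of Aurora B fell less: *Cdca8*, encoding borealin, kept 18.6%, *Birc5*, encoding survivin, 45.2%, and *Incenp*, encoding the scaffold, 46.5%. *Birc5* and *Incenp* were near the median gene, and under median-ratio scaling their log2 differences were 0.12 and 0.17 and did not pass the adjusted p (0.463 and 0.0594, limma with Benjamini-Hochberg).

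Of the 5 spindle checkpoint genes all fell and 3 passed both thresholds. The kinase genes *Ttk*, *Bub1b* and *Bub1* kept 12.7%, 16.1% and 23.6% of the group A level. *Mad2l1* and *Bub3*, whose products join that of *Bub1b* in the inhibitor of APC/C, kept 49.0% and 58.6%. *Bub3* was at 61.4, 63.6 and 65.7 FPKM in group A against 37.1, 35.7 and 39.0 in group B, with no overlap and a log2 difference of -0.76 (SE 0.07, limma adjusted p = 5.83e-08). Under median-ratio scaling *Bub3* and *Mad2l1* were higher in group B, by 0.51 and 0.24.

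At the kinetochore, 6 of 7 genes fell past both thresholds, and *Nuf2* and *Cenpf* were above 0 under median-ratio scaling. *Cenpa*, the centromeric histone H3 variant, was at 59.9, 52.8 and 63.3 FPKM in group A against 4.25, 2.97 and 4.61 in group B, a log2 difference of -3.60 (SE 0.18, limma adjusted p = 6.57e-11). The 4 subunits of the NDC80 complex, which binds microtubules, fell unequally. *Spc25* kept 5.79%, *Ndc80* 35.4%, *Spc24* 37.8% and *Nuf2* 45.6%. *Cenpe*, a kinetochore motor, kept 15.3%. *Cenpf*, a large kinetochore protein of G2, was at 13.0, 13.7 and 11.9 FPKM in group A against 11.6, 14.8 and 10.7 in group B, so the groups overlapped, and B2 was the highest of the 6 libraries. The log2 difference was -0.06 (95% interval -0.29 to 0.16, limma adjusted p = 0.569), 0.03 without library B3 and 1.12 under median-ratio scaling.

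All 7 mitotic kinesin genes fell, 6 past both thresholds, with *Kif18b* and *Kif20b* above 0 under median-ratio scaling. *Kif20a*, a motor of the central spindle, was at 31.6, 37.7 and 32.8 FPKM in group A against 4.19, 5.14 and 4.28 in group B (log2 difference -2.66, SE 0.09, limma adjusted p = 2.00e-12). *Kif2c*, a microtubule depolymerase, kept 11.8%, *Kif4*, a chromosome motor, 18.3%, and *Kif23*, a motor of the central spindle, 21.4%. *Kif11*, the motor that separates the poles, *Kif18b* and *Kif20b* kept 41.0%, 43.2% and 54.0%. *Kif20a* shares 1271 exon bases with *Cdc23*, which lies on the opposite strand and was at 9.55 FPKM in group A and 0.621 in group B. In all, 10 of the 50 genes share exon bases with another gene measured here. *Kif4* shares 832 with *Pdzd11*, *Ube2c* 592 with *Tnnc2* and *Ccna2* 510 with *Exosc9*, each on the opposite strand. In group B *Pdzd11* was at 7.47 FPKM, *Tnnc2* at 2.73 and *Exosc9* at 8.63. Whether counting used strand is not given in the sources used here, so reads of such pairs cannot be told apart.

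The genes of chromosome condensation and topology fell less than those of most roles. All 6 fell and 3 passed both thresholds, with a median log2 difference of -0.92, and under median-ratio scaling 4 of the 6 were higher in group B. *Top2a* was at 164, 177 and 164 FPKM in group A against 57.9, 67.2 and 54.8 in group B, with no overlap (log2 difference -1.48, SE 0.09, limma adjusted p = 1.15e-09), and under median-ratio scaling its difference was -0.20 (adjusted p = 0.0887 by limma). The condensin ATPase genes *Smc2* and *Smc4* kept 57.8% and 56.5%, while the condensin I subunit genes *Ncaph* and *Ncapd2* kept 47.4% and 25.4%. *Mki67*, which encodes the Ki-67 proliferation antigen that coats mitotic chromosomes, was at 52.9, 55.6 and 49.4 FPKM in group A against 38.9, 50.3 and 33.7 in group B. It kept 77.8%, its groups overlapped through library B2, and the log2 difference was -0.37 (SE 0.13, limma adjusted p = 0.0145) and 0.89 under median-ratio scaling.

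The 4 genes of anaphase and mitotic exit split between the APC/C side and separase. *Ube2c* was at 179, 162 and 185 FPKM in group A, 14.1, 17.0 and 15.8 in group B, 7.78, 12.1 and 8.28 in group C and 175, 149.7 and 179 in group D. The log2 difference between groups B and A was -3.41 (SE 0.13, limma adjusted p = 5.26e-12), and *Cdc20* kept 4.69% (-4.08). *Pttg1*, whose product holds separase inactive, kept 20.3% (-1.75). *Espl1*, which encodes separase, the protease that cuts cohesin, was at 14.4, 13.7 and 14.0 FPKM in group A against 13.7, 16.2 and 14.1 in group B, so the groups overlapped. Its log2 difference was 0.06 (95% interval -0.12 to 0.24, limma adjusted p = 0.528), 1.25 under median-ratio scaling and -0.30 in TPM.

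Of the 5 genes of the central spindle and cytokinesis all fell and 4 passed both thresholds. *Racgap1*, encoding a subunit of centralspindlin, was at 57.0, 57.3 and 56.4 FPKM in group A against 3.76, 3.26 and 3.19 in group B, or 5.98% of the untreated level (log2 difference -3.72, SE 0.12, limma adjusted p = 1.20e-12). *Nusap1*, a microtubule bundling protein, kept 7.46%, *Anln*, encoding the actin-binding protein anillin, 20.8%, and *Ect2*, the RhoA activator of the cleavage furrow, 27.7%. *Prc1*, the antiparallel microtubule crosslinker, kept 50.6%, a log2 difference of -0.95, and was 0.29 higher under median-ratio scaling. *Prc1* shares 911 exon bases with *Rccd1* on the opposite strand, which had 1.44 FPKM in group A.

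**Figure D2:**
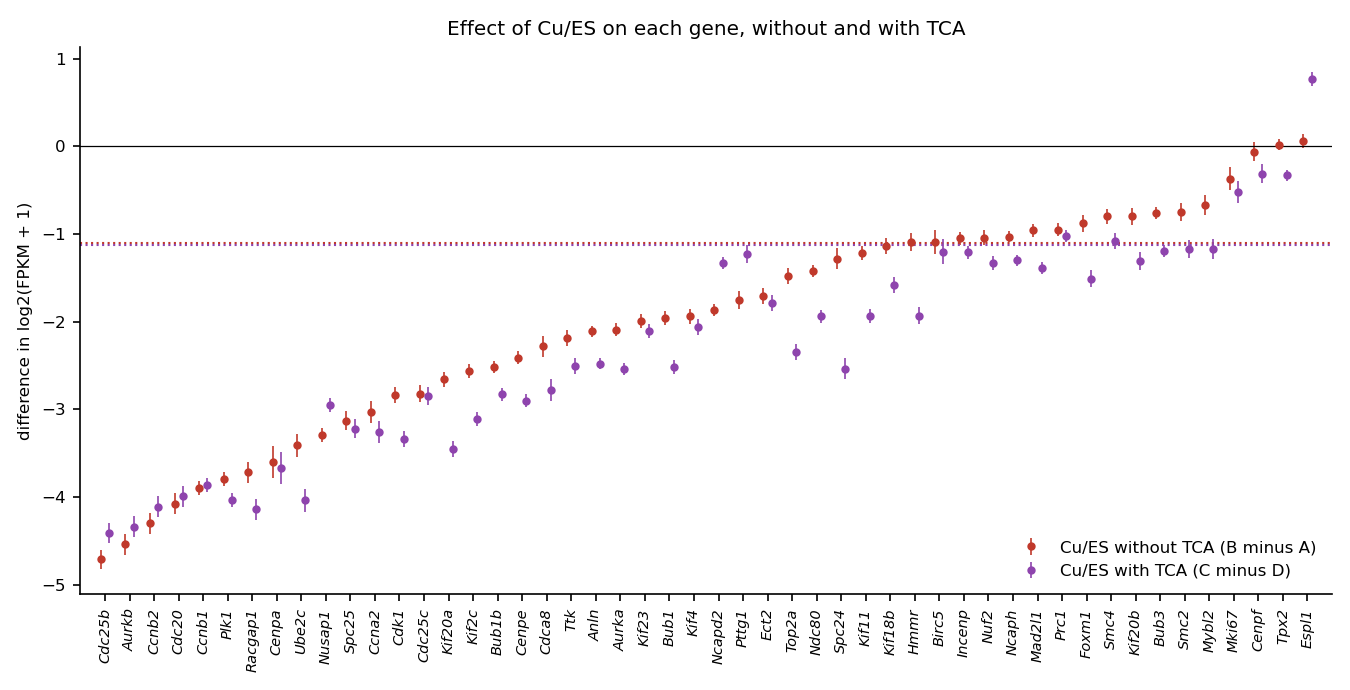
Difference in log2(FPKM + 1) due to Cu/ES for each of the 50 genes, without TCA (red, B minus A) and with TCA in both groups (purple, C minus D), with bars of 1 standard error from limma and dotted lines at the medians of all genes tested (-1.10 and -1.13). The red points run from -4.71 in *Cdc25b* to 0.06 in *Espl1*, and under median-ratio scaling 18 of the 50 genes lie above 0 in B minus A.

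The same comparison can be made where TCA was present in both groups, with no library shared with the first. Between groups C and D, 46 of the 50 genes fell past both thresholds (all genes 53.3%), with a median log2 difference of -2.23 against -1.13 over all genes. Under median-ratio scaling 27 did (all genes 27.2%). In 49 genes every group C library was below every group D library, against 71.6% of all genes tested. The exception was *Espl1*, at 20.4, 17.9 and 21.0 FPKM in group C and 10.3, 11.5 and 11.8 in group D, so group C was the higher one with no overlap (log2 difference 0.77, SE 0.08, limma adjusted p = 5.69e-07). Across the 50 genes the differences between groups B and A and between groups C and D had a Spearman correlation of 0.96, against 0.94 across all genes tested. Genes are not independent replicates, and each pair of points shares gene length and base composition.

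Length went along with how much of a gene was kept. Across the 50 genes the log2 fold change of recovered reads between groups B and A (limma-voom) had a Spearman correlation of 0.53 with log2 gene length, where all genes tested had -0.10. The 38 genes that fell past both thresholds had a median length of 3168.50 bases and the other 12 had 5052.00. *Cenpf* and *Mki67*, at 11365 and 10257 bases, kept 96.1% and 77.8%, and *Ube2c*, at 931 bases, kept 8.90%. There were exceptions: *Cenpe*, at 7813 bases, kept 15.3%, and *Bub3* and *Aurkb* differed little in length, at 2242 and 2177 bases, but kept 58.6% and 2.0%.

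**Figure D3:**
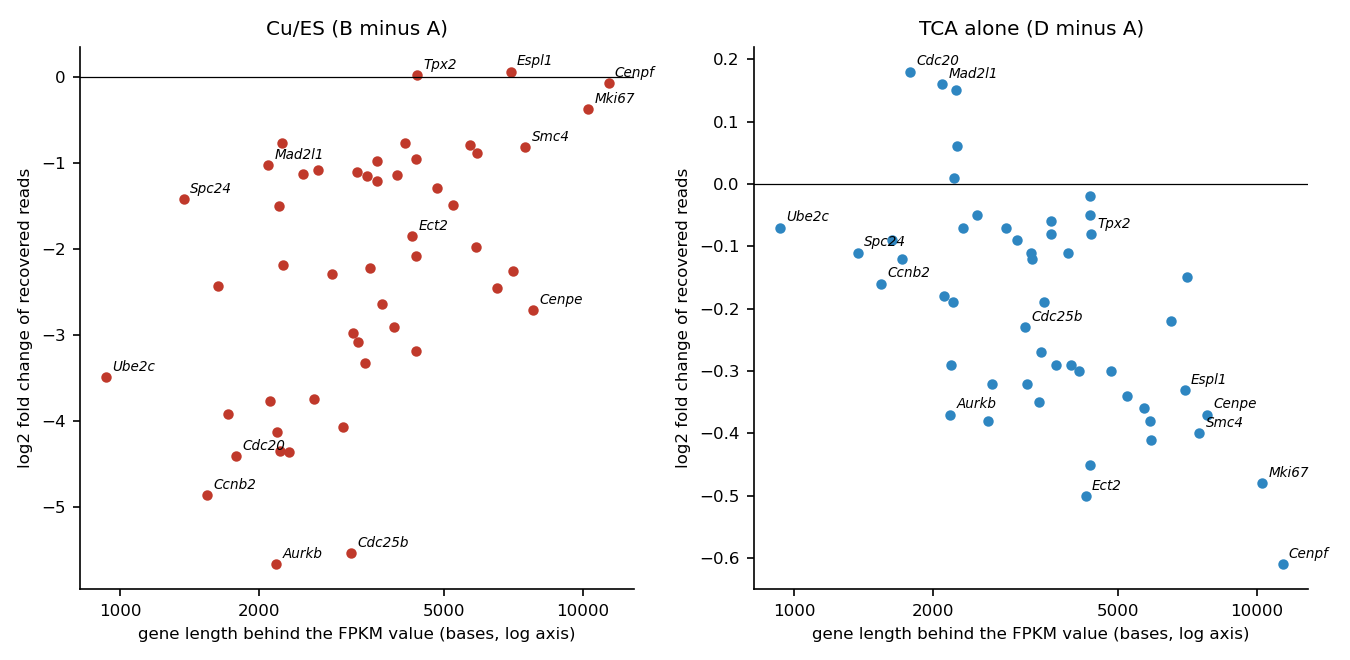
Gene length in bases (log axis) against the log2 fold change of recovered reads for the 50 genes, between groups B and A (left, red) and between groups D and A (right, blue), 1 point a gene, with some genes named. Longer genes tend to sit higher on the left and lower on the right, with Spearman correlations of 0.53 and -0.54.

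Promoters of G2/M genes carry a CHR element, with the letters TTTGAA or TTTAAA, at which DREAM, B-MYB and FOXM1 act, and CCAAT boxes bound by NF-Y. Promoter windows of 300 bases from RefSeq (GRCm38.p6, from 250 bases before to 50 after the start) were found for 41 of the 50 genes. The others were *Foxm1*, *Tpx2*, *Spc24*, *Smc4*, *Cdc25c*, *Incenp*, *Ccna2*, *Aurkb* and *Kif20a*. Counting both strands, TTTGAA or TTTAAA was in 33 of the 41 (80.5%, against 27.9% of 27025 promoters), CCAAT in 30 (73.2% against 37.8%), and both in 28 (68.3% against 10.8%). CCGCCC, the letters of the GC box, was in 33 (80.5% against 35.6%), and the median GC content was 59.0% in the 41 windows and 52.7% in all. TTTAAA reads the same on both strands, and where neighbouring motifs share a base each was counted. Among the 32 of these genes that fell past both thresholds between groups B and A, 26 held TTTGAA or TTTAAA and 24 held CCAAT, and among the other 9, 7 and 6 did. The 150 bases before the start are printed for genes at both ends of the Cu/ES response, with the CHR letters and CCAAT on either strand in capitals. *Ccnb2* (chr9:70421555-70421704, minus strand), *Cdc20* (chr4:118437344-118437493, minus strand) and *Plk1* (chr7:122159285-122159434, plus strand) kept under 10% of their level, *Top2a* (chr11:99024190-99024339, minus strand) had one of the largest falls when TCA was added, and *Cenpf* (chr1:189688087-189688236, minus strand) and *Espl1* (chr15:102296143-102296292, plus strand) did not fall with Cu/ES alone.
Ccnb2: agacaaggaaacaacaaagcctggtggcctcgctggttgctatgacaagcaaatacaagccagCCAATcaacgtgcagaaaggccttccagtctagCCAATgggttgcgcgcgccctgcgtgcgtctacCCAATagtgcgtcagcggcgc
Cdc20: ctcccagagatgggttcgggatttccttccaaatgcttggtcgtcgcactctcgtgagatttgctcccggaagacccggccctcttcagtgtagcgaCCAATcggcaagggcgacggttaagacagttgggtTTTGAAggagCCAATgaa
Plk1: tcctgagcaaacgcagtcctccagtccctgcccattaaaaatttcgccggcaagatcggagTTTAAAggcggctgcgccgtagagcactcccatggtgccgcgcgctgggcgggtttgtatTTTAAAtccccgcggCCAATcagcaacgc
Top2a: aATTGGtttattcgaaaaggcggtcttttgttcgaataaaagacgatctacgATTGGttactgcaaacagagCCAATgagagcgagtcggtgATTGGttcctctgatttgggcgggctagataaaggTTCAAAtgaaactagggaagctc
Cenpf: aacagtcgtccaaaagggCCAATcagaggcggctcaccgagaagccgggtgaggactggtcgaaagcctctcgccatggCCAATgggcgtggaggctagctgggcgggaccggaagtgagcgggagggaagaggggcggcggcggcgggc
Espl1: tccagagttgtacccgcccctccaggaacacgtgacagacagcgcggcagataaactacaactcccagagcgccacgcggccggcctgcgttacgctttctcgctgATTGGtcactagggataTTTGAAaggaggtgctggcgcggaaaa
The printed 150 bases of *Ccnb2* held 3 CCAAT boxes and those of *Top2a* 4, counting both strands. *Plk1* had 2 matches to TTTAAA, and *Cdc20* and *Espl1* each had 1 match to TTTGAA beside 2 and 1 CCAAT. *Top2a* had 1 match to TTTGAA, on the other strand. Neither *Ccnb2*, which kept under 5% of its level, nor *Cenpf*, which did not pass the test, had a form of the CHR letters in these 150 bases. In the 300-base windows counted above, *Ccnb2* held TTTGAA and *Cenpf* held both TTTGAA and TTTAAA.

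The next comparison asked what TCA added to Cu/ES. Between groups C and B, 38 of the 50 genes fell at the adjusted p (76.0%, against 23.6% of all genes tested) and 3 rose (all genes 20.4%). The median log2 difference was -0.51, against -0.03 over all genes. Most falls were below a log2 difference of 1, and 5 genes fell past both thresholds (10%, against 1.16% of all genes). These were *Spc24*, *Top2a*, *Hmmr*, *Kif11* and *Bub1*, and the count was 3 without library B2 and 11 by limma-voom on recovered reads, which has no pseudocount of this size. Groups C and B differed less in library composition than groups B and A: the 10 most abundant genes took 11.4% to 12.2% of the reads in group C.

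*Spc24* fell most. It was at 4.96, 7.12 and 6.20 FPKM in group B and 1.52, 2.21 and 1.49 in group C, against 17.1, 15.7 and 15.5 in group A and 15.7, 15.4 and 13.6 in group D. Every group C library was below every group B library, and the log2 difference was -1.37 (SE 0.12, limma adjusted p = 2.58e-06). Of its partners in the NDC80 complex, *Ndc80* fell by 0.70, *Spc25* by 0.37 and *Nuf2* by 0.34 on the log2 scale. This scale understates low genes, and *Spc25* had means of only 0.899 FPKM in group B and 0.479 in group C, with overlap. As a share of the group B level, *Spc25* kept 53.3%, *Ndc80* 57.8% and *Nuf2* 76.7%, so *Spc25* was not the smaller fall beside *Ndc80* by that measure. *Top2a* went from 57.9, 67.2 and 54.8 FPKM to 25.0, 28.8 and 22.4, a log2 difference of -1.21 (SE 0.09, limma adjusted p = 1.15e-06). *Hmmr* went from 15.8, 19.0 and 14.7 FPKM to 6.16, 7.90 and 7.17 (-1.11, SE 0.10, limma adjusted p = 3.48e-06). In both genes the groups were apart, with B2 the highest library of group B and C2 the highest of group C.

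By role, all 5 checkpoint genes, all 7 kinesins, all 4 spindle pole genes and both transcription factors fell when TCA was added, although *Plk1* did not pass by limma-voom on recovered reads (adjusted p = 0.227). The kinetochore lost 6 of 7, the passenger complex 3 of 4, chromosome condensation 5 of 6 and the central spindle 3 of 5. In the CDK1 engine only *Ccna2* and *Cdk1* fell, by 0.57 and 0.51 on the log2 scale. *Ccnb2* (0.03, 95% interval -0.23 to 0.29), *Ccnb1* (-0.03, -0.21 to 0.14), *Cdc25b* (0.08, -0.16 to 0.31) and *Cdc25c* (-0.20, -0.42 to 0.03) did not pass the adjusted p in limma with Benjamini-Hochberg. These 4 were at 0.602 to 2.66 FPKM in the libraries of groups B and C. Of the other genes that kept under 10% in group B, *Cdc20*, *Aurkb*, *Cenpa* and *Nusap1* did not pass, and *Ube2c*, *Racgap1*, *Plk1* and *Spc25* fell. *Tpx2* and *Cenpf*, level between groups A and B, fell by 0.43 and 0.80, to 73.7% and 53.3% of the group B level.

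The 3 genes that rose include securin and separase. *Pttg1* was at 1.51, 1.58 and 1.53 FPKM in group B and 1.98, 2.68 and 2.85 in group C, a log2 difference of 0.45 (SE 0.10, limma adjusted p = 0.00198), from 135 to 145 reads a library to 165 to 268. It stayed below its untreated level of 6.98 to 8.12 FPKM. *Espl1* was at 13.7, 16.2 and 14.1 FPKM in group B and 20.4, 17.9 and 21.0 in group C (0.41, SE 0.08, limma adjusted p = 0.00137), above every other group. *Ncapd2*, encoding a condensin I subunit, went from 9.76, 9.41 and 9.66 to 11.2, 10.2 and 11.6 FPKM (0.18, SE 0.07, limma adjusted p = 0.0402, and 0.136 in a fit of groups B and C alone), while its partners *Ncaph*, *Smc2* and *Smc4* fell by 0.58, 0.77 and 0.67. In none of the 3 genes did the groups overlap.

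**Figure D4:**
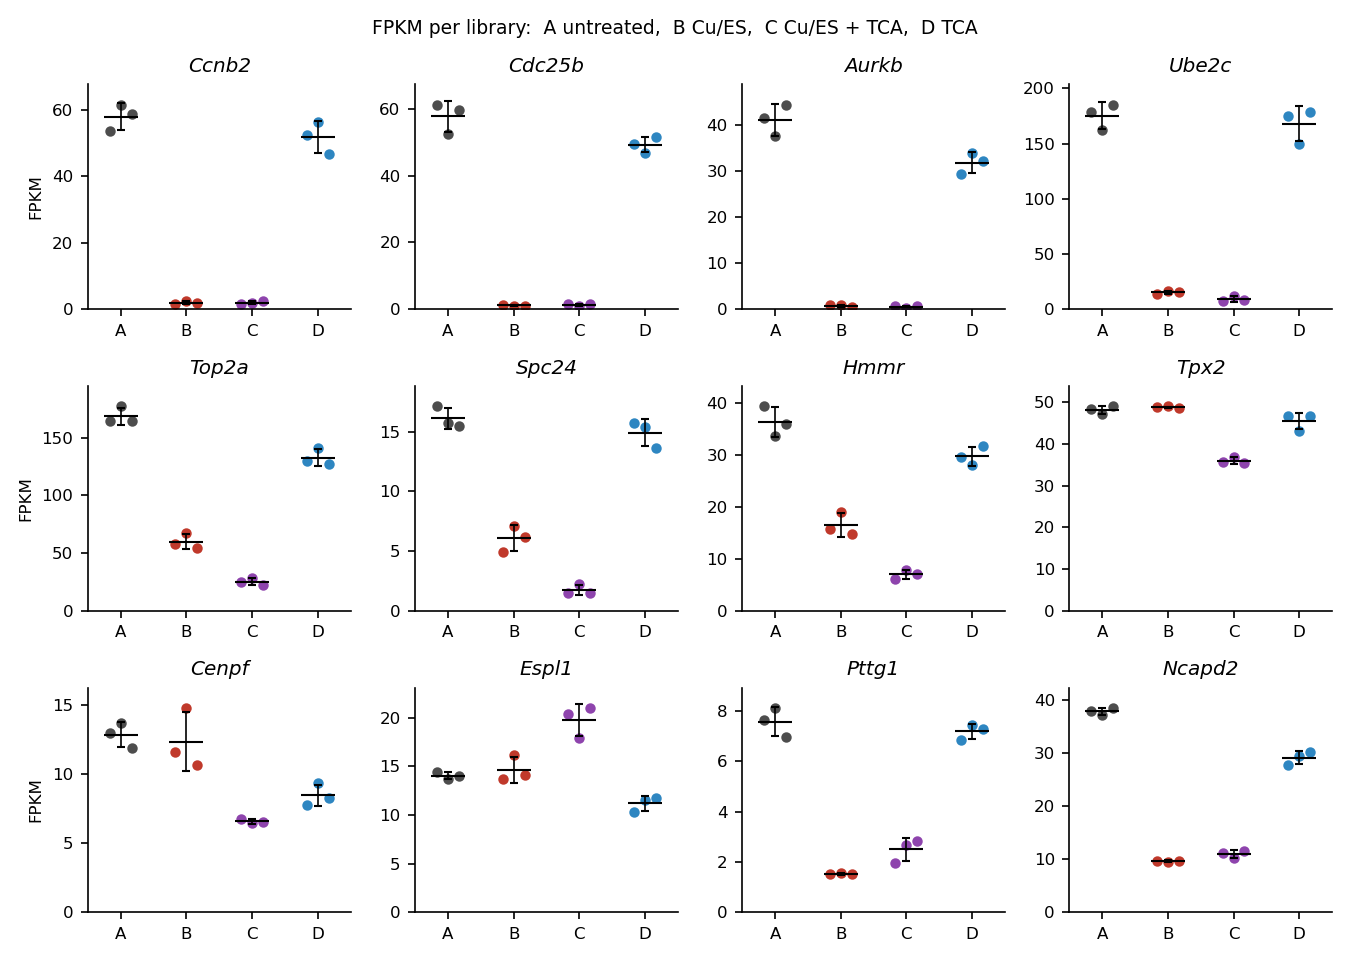
FPKM of 12 of the genes in each library (points) with the mean and SD of each group (bars, n = 3), on linear axes from 0. *Ccnb2*, *Cdc25b* and *Aurkb* are near 0 in groups B and C, *Top2a*, *Spc24* and *Hmmr* step down from A to B to C, *Tpx2* and *Cenpf* are lower in C and not in B, and *Espl1* is highest in C at 17.9 to 21.0 FPKM.

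The effect of TCA without Cu/ES was compared next. Between groups D and A, 17 of the 50 genes fell at the adjusted p (34.0%, against 11.5% of all genes tested), with a median log2 difference of -0.18 against -0.01 over all genes. By limma or limma-voom none rose at the adjusted p, where 10.5% of all genes did, with 2 higher at an unadjusted p under 0.05 in limma (all genes 16.7%), and none passed both thresholds in the lower direction, where 0.151% of all genes did. The count of 17 was 10 without library A1, 9 without D1 and 11 without D3. On the FPKM scale group D kept 65.7% to 113% of the group A level.

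All 6 genes of chromosome condensation and topology fell, by 0.31 to 0.47 on the log2 scale. By limma on this scale none of the 6 CDK1 engine genes, 4 spindle pole genes or 2 transcription factors did. By limma-voom on recovered reads *Ccna2*, *Cdc25b* and *Hmmr* of these roles did fall. Their log2 fold changes were -0.35, -0.23 and -0.29 (limma-voom adjusted p = 0.0106, 0.0418 and 0.0329). *Cenpf* had the largest difference, at 13.0, 13.7 and 11.9 FPKM in group A against 7.81, 9.34 and 8.25 in group D, with no overlap (log2 difference -0.55, SE 0.11, limma adjusted p = 0.00290). *Ect2* went from 28.3, 23.3 and 24.6 to 16.9, 17.8 and 19.2 FPKM (-0.47, SE 0.09, limma adjusted p = 0.00298) and *Mki67* from 52.9, 55.6 and 49.4 to 34.4, 42.1 and 36.7 (-0.47, SE 0.13, limma adjusted p = 0.0199), both without overlap. The checkpoint kinase genes *Bub1*, *Bub1b* and *Ttk* fell by 0.44, 0.28 and 0.28. *Cenpe*, *Kif11*, *Kif20b*, *Aurkb*, *Nusap1* and *Espl1* also fell. *Cdc20*, *Mad2l1* and *Bub3* had positive differences of 0.18, 0.15 and 0.15 that did not pass the adjusted p (0.334, 0.130 and 0.136, limma with Benjamini-Hochberg). Across the 50 genes the log2 fold change of recovered reads between groups D and A had a Spearman correlation of -0.54 with log2 length (all genes -0.11), the longer genes being the lower ones.

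The lists that fell with TCA in the presence and absence of Cu/ES, which share no library, held 13 genes in common, or 34.2% of the 38 and 76.5% of the 17, where 76.0% of all 50 genes were in the first list and 34.0% in the second. *Aurkb*, *Espl1*, *Ncapd2* and *Nusap1* were in the second list and not in the first. Across the 50 genes the TCA differences with and without Cu/ES had a Spearman correlation of 0.33, against 0.06 across all genes tested. The difference between these effects was tested as an interaction. In 24 genes the TCA difference was lower with Cu/ES than without it (48.0%, against 19.8% of all genes tested). Of these, *Aurka*, *Bub3* and *Mad2l1* had positive differences with TCA alone (0.05, 0.15 and 0.15), none past the adjusted p. In 4 genes the interaction was positive (all genes 17.7%). The largest interactions in each direction were those of *Spc24* (-1.26, SE 0.17, limma adjusted p = 1.50e-04) and *Espl1* (0.71, SE 0.12, limma adjusted p = 5.35e-04). *Espl1* fell with TCA alone and rose with TCA in Cu/ES.

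**Figure D5:**
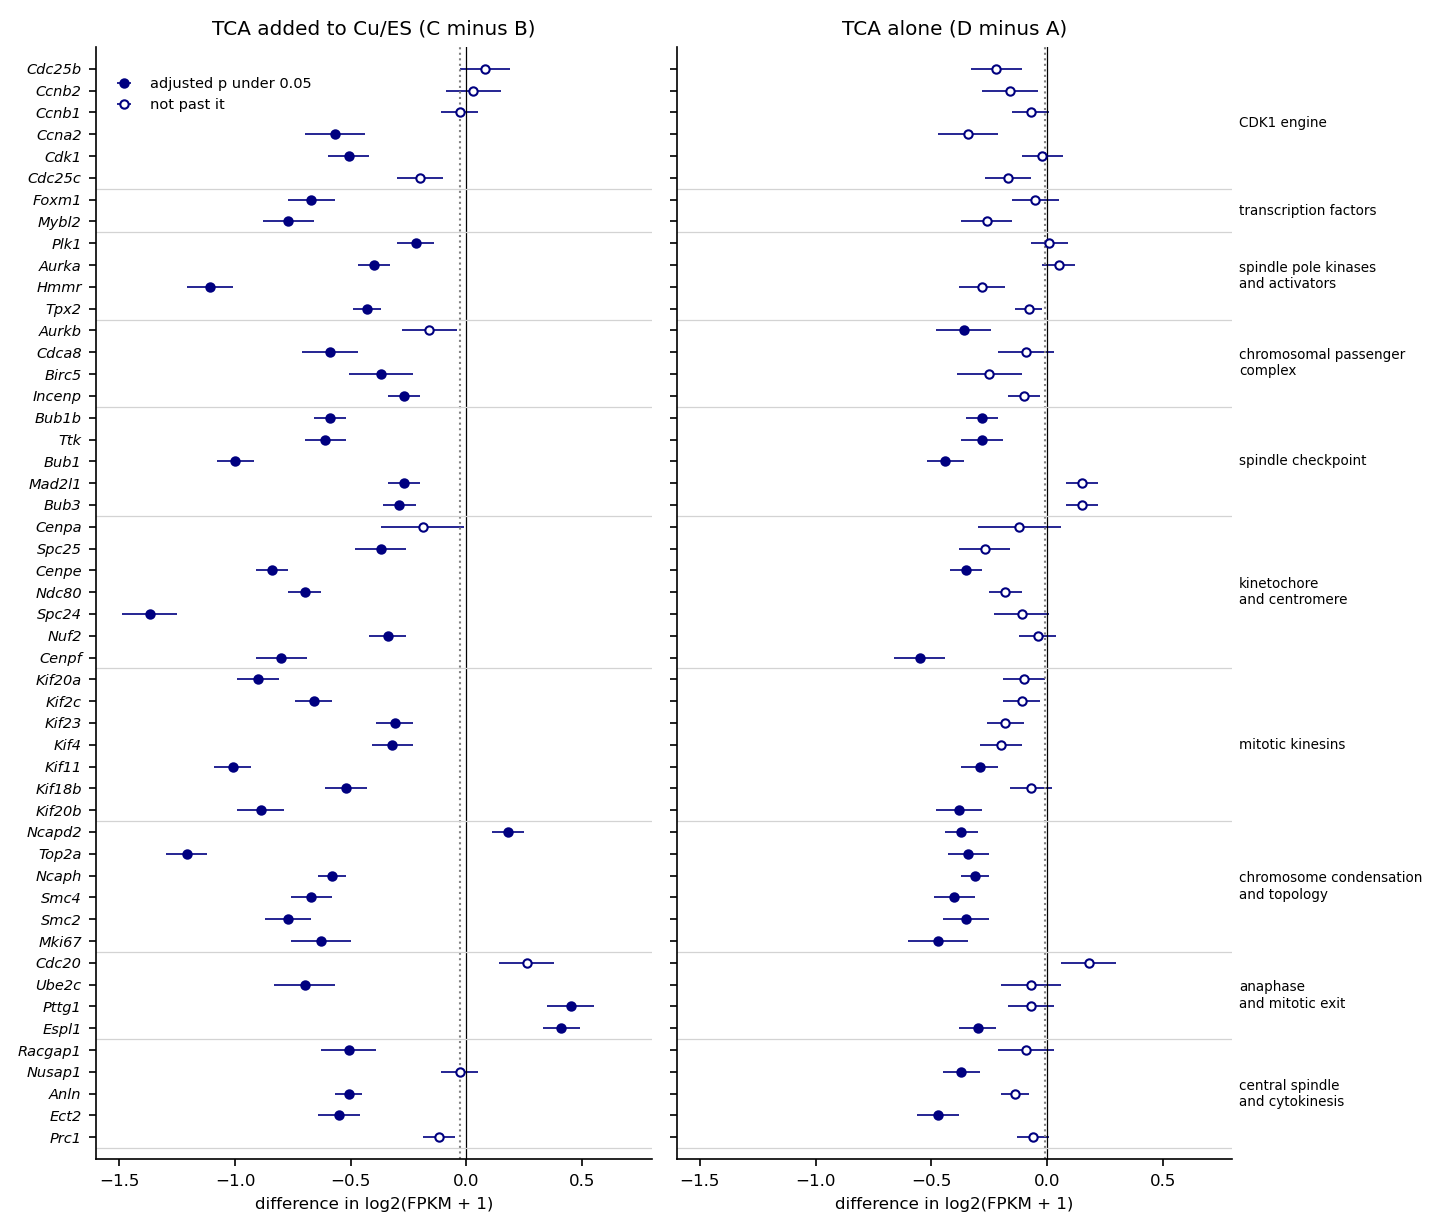
Difference in log2(FPKM + 1) due to TCA for each of the 50 genes by role, in the presence of Cu/ES (left, C minus B) and without it (right, D minus A), with bars of 1 standard error from limma, filled points at an adjusted p under 0.05 and dotted lines at the medians of all genes tested. On the left 38 filled points are below 0 and 3 above, and on the right 17 are below and none above, with all 6 condensation and topology genes among them.

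Genes around this set were read from lists of the same pathway. Their counts past both thresholds stand against 53.0% of all genes lower and 10.1% higher between groups B and A, or 25.5% and 25.9% under median-ratio scaling. Of the 14 tested genes that restrain G2/M, 6 rose past both thresholds between groups B and A and 1 fell, and under median-ratio scaling 10 rose and 0 fell. *Gadd45g*, whose product binds CDK1 and stress kinases, was at 18.8, 20.7 and 19.8 FPKM in group A, 1492, 2067 and 1649.5 in group B, 1491, 2543 and 1614 in group C and 15.0, 13.4 and 9.97 in group D. The log2 difference between groups B and A was 6.37 (SE 0.18, limma adjusted p = 4.65e-13). *Gadd45b* went from 7.77 ± 0.669 to 289 ± 50.8 FPKM (mean ± SD, n = 3), and *Gadd45a*, *Plk2*, *Plk3* and *Sfn*, encoding 14-3-3 sigma, rose by 2.27, 2.47, 2.61 and 1.22 on the log2 scale. The values of *Cdkn1a* and *Wee1* depended on the scaling. *Cdkn1a*, encoding the inhibitor p21, was at 210.1 ± 30.7 and 216 ± 4.44 FPKM (log2 difference 0.05, limma adjusted p = 0.660), and *Wee1*, the CDK1 inhibitory kinase, differed by -0.16 (adjusted p = 0.126 by limma). Under median-ratio scaling they rose by 1.33 and 0.95 (adjusted p = 7.30e-08 and 1.68e-07 by limma). *Pkmyt1*, a related kinase gene, fell by 1.86, and by 0.81 under that scaling.

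Among the 16 APC/C genes 9 fell past both thresholds and 1 rose, and under median-ratio scaling 4 fell and 3 rose. *Fzr1*, encoding the APC/C activator CDH1, fell from 28.5 ± 1.39 to 2.65 ± 0.296 FPKM. *Ube2s*, which extends ubiquitin chains beside UBE2C, was at 181 ± 11.6 and 205 ± 5.96 (limma adjusted p = 0.0727), and 1.46 higher under median-ratio scaling. Of 20 other mitotic motors and spindle proteins 14 fell and none rose past both thresholds, with 8 and 2 under median-ratio scaling, and *Kifc1*, a minus-end motor, kept 2.34 of 35.5 FPKM. *Kntc1* was counted both in this list and among the other kinetochore genes. It did not pass both thresholds (log2 difference -0.90, and 0.06 under median-ratio scaling).

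In the other lists the balance of falls and rises moved with the scaling. Of 28 other kinetochore genes 12 fell and 1 rose past both thresholds, a smaller share of falls than over all genes, and under median-ratio scaling 3 fell and 9 rose. The gene that rose was *Zwint*, a kinetochore scaffold, from 68.8 ± 1.10 to 332 ± 6.14 FPKM (log2 difference 2.25, SE 0.05, limma adjusted p = 1.17e-13). Among 13 cohesin genes 5 fell and 1 rose, and under median-ratio scaling 2 and 5. The centromere guard genes *Sgo1* and *Sgo2a* fell by 2.81 and 2.59, and *Cdca5*, encoding sororin, rose by 2.13. In the MuvB and DREAM list 4 of 10 fell and 2 rose, against 3 and 5 under median-ratio scaling. The pocket protein genes *Rbl1* and *Rbl2* had log2 differences of -2.11 and -3.13, and the MuvB subunit genes *Lin52* and *Lin54* rose by 1.20 and 1.12. Of 10 tubulins 6 fell and 1 rose, or 4 and 3 under median-ratio scaling, and of 4 other condensin genes 1 fell and 0 rose, or 0 and 1. Of 13 CDK1 accessory genes 4 fell and 1 rose, or 2 and 5, and of 16 centrosome duplication genes 6 fell and 2 rose, or 3 and 5.

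Genes of the preceding phases were read for comparison. In a list of 46 DNA replication genes 10 fell and 14 rose past both thresholds between groups B and A. Under median-ratio scaling 5 fell and 26 rose. The median log2 difference was -0.17, above the median of all genes. When TCA was added to Cu/ES, 33 of the 46 fell at the adjusted p (all genes 23.6%) and 1 rose (all genes 20.4%), with a median of -0.49, near the -0.51 of the 50 mitotic genes. Of 14 tested G1 cyclin and CDK inhibitor genes 8 fell and 1 rose past both thresholds with Cu/ES, with a median of -1.25 against -1.10 over all genes, or 6 and 3 under median-ratio scaling, and 6 fell and 2 rose at the adjusted p when TCA was added.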

How the data were processed

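RNA of 12 AML12 libraries, 3 in each of groups A to D, was analysed. The authors deposited FPKM values for 24824 genes by symbol, 1 column per library, and the submitters' processing notes name fastp, HISAT2, HTSeq and GRCm39, with no versions. The strand setting of the counting is not given in the sources used here. Each of the 12 columns was used. Since FPKM values step by whole reads, read numbers and depth could be worked back from them: all 22212 genes above 0 in at least 2 libraries came out whole in every library, within 0.02 reads. Reads cover counting error only.

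The count model of the study was not used, since the table holds FPKM. Instead log2(FPKM + 1) of the 10615 genes with a mean of at least 1 FPKM was fitted with limma 3.58.1 in R 4.3.3, in one model of the 4 groups with a mean-variance trend and 8 residual degrees of freedom. A fold change on this scale understates low genes. Tests were two-sided, with Benjamini-Hochberg adjustment over all genes tested. An absolute log2 difference above 1 was the second threshold. Exact permutation tests of 3 libraries against 3 cannot go below p = 0.1 and are not printed. Tables and plots used Python 3.11.15, pandas 2.3.3, numpy 2.4.6 and matplotlib 3.10.9, and the fits were tested on simulated data.

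The 50 genes, their roles, the other lists and the tests were chosen with earlier results of these data known. Library values were printed for the gene with the highest group A mean in each role, for the 3 largest and 3 smallest differences between groups B and A, and for the 3 largest falls and rises between groups C and B and between groups D and A. From the wider lists, all restraining genes could be named, and of the others at most the 2 largest rises and falls past both thresholds. *Ube2s* was named after its values were seen, *Cdc23*, *Rccd1*, *Pdzd11*, *Tnnc2* and *Exosc9* for their exon overlap, and *Kntc1* because more than 1 list holds it. Promoter sequences and gene overlaps came from RefSeq and GENCODE tables of GRCm38, another build than that of the files, and were matched by symbol. As alternatives the fits were repeated with a pseudocount of 0.1, with the filter at 5 FPKM or absent, in TPM, under quantile or median-ratio scaling, with a replicate block, without the trend, on the compared groups alone, by limma-voom on recovered reads and without each library in turn. Limma-voom with median-ratio scaling was added after the data were seen.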

Additional observations from a re-analysis of the deposited data

Results flagged for a closer look

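In 28 of the 50 genes the TCA effect depended on whether Cu/ES was present, by the interaction term (limma with Benjamini-Hochberg, adjusted p under 0.05), which is the log2 difference between groups C and B less that between groups D and A. Values below 0 mean that TCA lowered the gene more, or raised it less, with Cu/ES. Over all genes tested 19.8% passed below 0 and 17.7% above 0. The kinetochore and checkpoint genes were *Spc24* (-1.26), *Bub1* (-0.56), *Ndc80* (-0.52), *Cenpe* (-0.49), *Bub3* (-0.44), *Mad2l1* (-0.42) and *Bub1b* (-0.31). The kinesins were *Kif20a* (-0.79), *Kif11* (-0.72), *Kif2c* (-0.55), *Kif20b* (-0.52) and *Kif18b* (-0.44). At the spindle poles they were *Hmmr* (-0.84), *Aurka* (-0.45) and *Tpx2* (-0.35), and in chromosome condensation *Top2a* (-0.87), *Smc2* (-0.42) and *Ncaph* (-0.27). The others below 0 were *Ube2c* (-0.63), *Foxm1* (-0.62), *Mybl2* (-0.51), *Cdca8* (-0.50), *Cdk1* (-0.50) and *Anln* (-0.37). Above 0 were *Nusap1* (0.34), *Pttg1* (0.52), *Ncapd2* (0.55) and *Espl1* (0.71). *Cdca8* did not pass the adjusted p by limma-voom on recovered reads (0.0576), nor did *Nusap1* (0.160). *Ttk* and *Racgap1* passed by limma-voom only, with interactions of -1.26 and -0.60 (limma-voom adjusted p = 0.00993 and 0.0325). By limma their adjusted p was 0.0668 and 0.0667.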

How the results depend on the processing

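The medians of the 50 genes stayed below 0 in every comparison under all alternatives run. Median-ratio scaling, quantile normalization and limma-voom with median-ratio scaling, which put the median of all genes near 0, brought the count lower past both thresholds between groups B and A from 38 to 20, 24 and 21, the count higher to 3, 1 and 3, and the count lower between groups C and D from 46 to 27, 26 and 27. The medians were then -0.76, -0.85 and -0.79 between groups B and A and -1.12, -1.12 and -1.17 between groups C and D. In TPM these medians were -2.36 and -2.65 (all genes -1.56 and -1.54). By limma-voom on recovered reads they were -2.14 and -2.56 (all genes -1.33 and -1.39). With a pseudocount of 0.1 they were -2.12 and -2.53 (all genes -1.30 and -1.37). Between groups C and B the count past both thresholds was 11 by limma-voom, 10 with a pseudocount of 0.1, 10 by limma-voom with median-ratio scaling and 2 with quantile normalization, and the median was -0.63 by limma-voom and with the pseudocount of 0.1. Between groups D and A, 11 genes fell in TPM and 1, *Bub3*, rose in a fit of those groups alone, and the median was -0.14 with median-ratio and -0.22 with quantile scaling. The interaction median was -0.39 by limma-voom and with the pseudocount of 0.1, and -0.16 with quantile scaling. Of all genes 53.0% were lower and 10.1% higher past both thresholds between groups B and A in the main fit. Under median-ratio scaling the shares were 25.5% and 25.9%. Between groups C and D 53.3% of all genes were lower in the main fit and 27.2% under median-ratio scaling. Shares of all genes in the other alternatives are not given here, so the counts there are not set against all genes. Between groups B and A the median of the 50 genes less that of all genes was -0.81 in the main fit. It was -0.80 in TPM, -0.82 with a pseudocount of 0.1, -0.73 with median-ratio and -0.75 with quantile scaling. Both limma-voom fits gave -0.81. Most of the shift in the B and A medians was thus shared by all genes. The cause of the shifts was not tested. Of the values of single genes, 470 kept their direction and side of the threshold under such alternatives, 33 lost the call and 7 gained it.

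Under median-ratio scaling 18 of the 50 genes were above 0 between groups B and A. Among the genes whose single values were followed in every alternative, those that turned were *Foxm1* (0.31, 0.11 and 0.39 under median-ratio scaling, quantile normalization and limma-voom with median-ratio scaling), *Cenpf* (1.12, 0.98 and 1.27, and 0.03 without library B3, with a range of -0.19 to 0.03 over single libraries left out), *Bub3* (0.51 with median-ratio scaling, 0.57 by limma-voom with it), *Tpx2* (-0.35 in TPM) and *Espl1* (-0.30 in TPM and -0.01 without library B2). Leaving out 1 library at a time gave 38 to 39 genes lower and 0 to 0 higher past both thresholds between groups B and A (median -1.94 to -1.89), 45 to 46 lower between groups C and D (-2.28 to -2.17), 3 to 5 lower past both and 36 to 38 lower and 2 to 3 higher at the adjusted p between groups C and B (-0.54 to -0.47), 9 to 19 lower and 0 to 0 higher between groups D and A (-0.21 to -0.18), and 20 to 24 lower and 3 to 5 higher for the interaction (-0.35 to -0.29). The 17 genes lower between groups D and A became 10 without A1, 9 without D1 and 11 without D3, and the 5 between groups C and B became 3 without B2.

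Replicate numbers are shared across groups, but libraries of the same number did not deviate together in every pair (mean r 0.125, from -0.171 to 0.579, against -0.0590 for other pairs, with 7 of 12 libraries closest to one of their own number). The replicate block left the counts at 38, 46, 5, 38, 3, 17, 24 and 4. In the 150 bases before the start alone, the share of the 41 promoters was 29.3% for TTTGAA (9.25% of all promoters), 7.32% for TTTAAA (6.87%), 36.6% for either (15.0%), 56.1% for CCGCCC (28.6%) and 34.1% for either with CCAAT (3.72%). In group C, *Aurkb* had 31 to 56 reads a library, *Spc25* 24 to 48 and *Ttk* 35 to 37, and the *Ttk* difference between groups C and B was -0.61 by limma and -1.58 by limma-voom.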
